A study of Mus musculus with 12 samples.

Results

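The SLC25 family holds the mitochondrial solute carriers, proteins that sit mostly in the inner mitochondrial membrane and pass metabolites, nucleotides, cofactors and ions between the cytosol and the matrix. They were taken here as the genes listed under a symbol of Slc25a followed by a digit, which gave 44 of the 23079 genes of the table. In oxidative phosphorylation the ADP/ATP carriers export ATP in exchange for ADP and the phosphate carrier brings in phosphate. The malate-aspartate shuttle, which moves reducing equivalents from glycolysis into mitochondria, runs through an aspartate-glutamate carrier and a 2-oxoglutarate-malate carrier. Pacemaking dopaminergic neurons of the midbrain are known for a high demand on mitochondria.

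Dopaminergic neurons were profiled from the substantia nigra pars compacta (SNpc) and from the ventral tegmental area (VTA) of C57BL/6 mice. The neurons of SNpc are lost earlier in Parkinson disease than those of VTA, and the series sets the RNA of the populations side by side. The labels speak of TRAP samples, read here as translating ribosome affinity purification, which pulls down the ribosomes of a tagged cell type with their RNA. The tag, the gene that drove it, the sex and age of the mice and the number of mice per library remain unstated in the labels and notes used here. Each region has 6 columns of read counts. SNpc columns 4 and 5 had the same count for every gene, so they differed by less than the sampling noise; the same held for VTA columns 2 and 3, and each pair was counted as 1 sample. That left 5 SNpc libraries (1, 2, 3, 4 and 6) and 5 VTA libraries (1, 2, 4, 5 and 6), and values below follow this order. No label states that each is from other mice, and p-values therefore measure only how these libraries vary, and that variation may be technical.

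Total counts ran from 62951005 to 65959443 in SNpc and from 62356964 to 81393907 in VTA. Levels are given as CPM, counts scaled to the size of the library, scaled between libraries by the trimmed mean of M-values (TMM). Coordinates are those of RefSeq genes on GRCm38.p6, the assembly of the build mm10 used by the authors. Markers of dopaminergic neurons were abundant in all libraries: their summed level over 10 genes was 10839 to 15774 CPM in SNpc and 5576 to 9151 CPM in VTA (exact permutation p = 0.00794, the smallest that 5 libraries against 5 allow, adjusted p = 0.0357 over 9 library measures, two-sided), and 9 of the 10 were higher in SNpc and 0 in VTA by the test described next. Lists of markers of other cell types were lower in sum. Whether their RNA came from other cells or from the dopaminergic neurons was not tested. Astrocyte markers were at 269 to 464 CPM in SNpc and 459.5 to 605 CPM in VTA (exact permutation adjusted p = 0.0476), with 3 of 10 higher in VTA and 7 without a call. Slc1a2 alone averaged 276 CPM of a mean sum of 323 CPM in SNpc, and 470 of 540 CPM in VTA. This sum therefore mostly follows 1 gene. Markers of glutamatergic neurons were at 18.6 to 87.7 CPM in SNpc and 93.1 to 131 CPM in VTA (exact permutation adjusted p = 0.0357), with 2 of 3 higher in VTA. Slc17a6 alone averaged 36.1 CPM of a mean sum of 41.7 CPM in SNpc, and 93.4 of 108 CPM in VTA. Oligodendrocyte precursor markers were at 19.6 to 66.1 CPM in SNpc and 48.5 to 72.7 CPM in VTA (exact permutation adjusted p = 0.0714, which did not pass 0.05), with 3 of 6 genes higher in VTA. Oligodendrocyte markers (285 to 1478 CPM in SNpc, 725 to 897 CPM in VTA), microglial markers (45.9 to 70.2 and 54.0 to 75.6 CPM), vascular markers (4.09 to 13.9 and 7.56 to 100.1 CPM) and markers of GABA neurons (294 to 518 and 306 to 399 CPM) did not pass the exact permutation test (adjusted p = 0.171 to 0.913). Without SNpc library 4, oligodendrocyte sums in SNpc were 285 to 530 CPM, below the VTA range. By gene, 0 of 10 oligodendrocyte markers were called. Of 10 microglial markers, 2 were higher in VTA and 1 in SNpc. All 7 vascular markers tested had log2 fold changes below 0, with 2 called. Of 4 GABA neuron markers, 1 was higher in SNpc. SNpc library 4 stood apart from the other SNpc libraries: it had the lowest sum of dopaminergic markers and the highest sum of each of the 7 other marker lists. The part of these differences in the carrier results was not tested, and counts without SNpc library 4 are given beside the main ones. In RNA from many cells, fewer cells of a type and less RNA per cell cannot be told apart.

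Most carriers that differed were higher in SNpc, the 3 most abundant among them. Of the 44 carriers, 41 passed the filter on low counts and were tested by edgeR's quasi-likelihood test over 15685 genes, with SNpc minus VTA as the log2 fold change and a Benjamini-Hochberg adjusted p under 0.05 as a call. Slc25a4, Slc25a5, Slc25a3, Slc25a12, Slc25a11, Slc25a33, Slc25a22, Slc25a38 and Slc25a17 were higher in SNpc, 9 of 41 or 22.0%, where 17.8% of all genes tested were. Slc25a23, Slc25a16 and Slc25a37 were higher in VTA, 3 of 41 or 7.32%, where 20.4% of all genes tested were. The other 29 had no call, and in either direction 38.2% of all genes tested were called. The median log2 fold change of the 41 carriers was 0.11, against -0.04 over all genes tested. All SNpc libraries lay above all VTA libraries for 8 carriers, where 12% of all genes tested did so, and below them for 1, where 14.6% did so. The share of carriers higher in SNpc was thus close to that of all genes, and carriers were called in both directions. Without SNpc library 4 the calls were 11 in SNpc and 4 in VTA, with all 12 of the calls above among them. Over all 15904 genes of that fit, 3317 were higher in SNpc and 3193 in VTA, against 2793 and 3203 with the library kept.

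**Figure D1:**
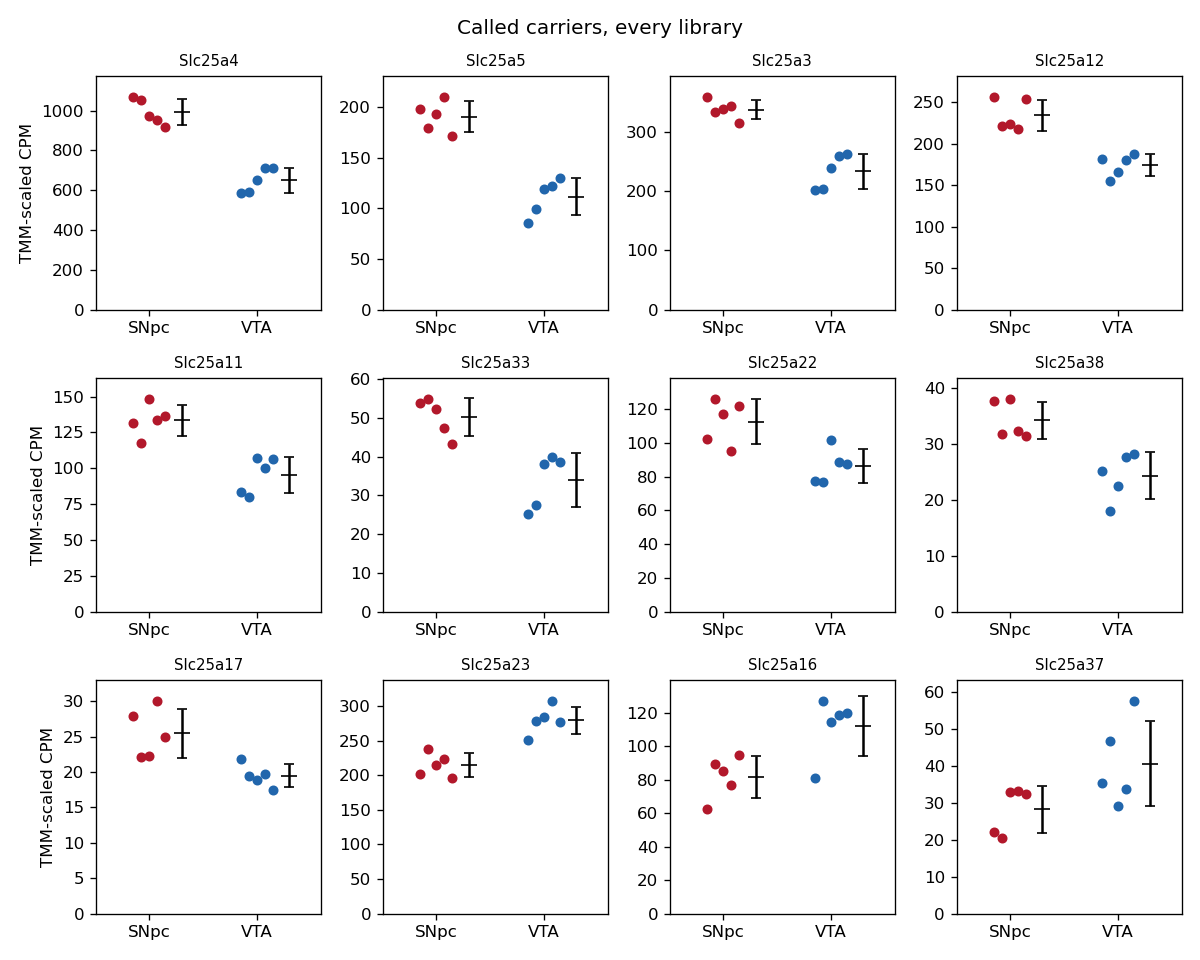
TMM-scaled CPM (y axis, linear from 0) of the 12 called carriers in each of the 5 SNpc (red, left) and 5 VTA (blue, right) libraries, with the mean and SD as a black bar beside the points. The first 9 panels are the carriers higher in SNpc and the last 3 those higher in VTA. The groups of Slc25a22, Slc25a16 and Slc25a37 overlap and those of the other 9 do not.

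The abundant carriers of adenine nucleotides and phosphate were higher in SNpc, and a calcium-regulated one was higher in VTA. Of 7 carriers tested, 3 were higher in SNpc and 1 in VTA, and their median log2 fold change was 0.11. Over all genes tested the shares were 17.8% and 20.4%, and with 7 genes the count says nothing particular to this group. Slc25a4, the ADP/ATP carrier ANT1 of heart, muscle and brain (chr8:46207168-46211062), had 1068, 1055, 973, 953 and 917 CPM in the SNpc libraries, against 585, 591, 651, 709.7 and 709.6 CPM in the VTA libraries. Every SNpc library was above every VTA library. The log2 fold change was 0.61 ± 0.09 (SE, adjusted p = 3.78e-05 by edgeR), a 1.53-fold higher level in SNpc. Slc25a5, the more widely expressed ADP/ATP carrier ANT2 (chrX:36795597-36798808), had 199, 179, 194, 210.0 and 172 CPM in the SNpc libraries, against 85.8, 99.2, 119.7, 122 and 130.2 CPM in the VTA libraries, again with no overlap and with VTA libraries 1 and 2 lowest. Its log2 fold change of 0.78 ± 0.11 (SE, adjusted p = 5.96e-05 by edgeR) was the highest among the called carriers. Slc25a3, the phosphate carrier that feeds the ATP synthase (chr10:91116574-91124046), had 359, 334, 339, 344 and 315 CPM in the SNpc libraries, against 202, 204, 239.7, 259 and 263 CPM in the VTA libraries, and its groups did not overlap either. It changed by 0.53 ± 0.09 (SE, adjusted p = 0.00032 by edgeR) on the log2 scale. VTA libraries 1 and 2, which were lowest for all 3 genes, also had the lowest sums of dopaminergic markers in VTA, at 7058 and 5576 CPM. Together 3 pseudogenes listed in GENCODE match 72.3% of the Slc25a5 transcript at 95% identity or more over at least 100 bases, so its count is uncertain, whereas the transcripts of Slc25a4 and Slc25a3 had no such match.

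Against them stood Slc25a23, a calcium-regulated carrier that exchanges ATP-Mg for phosphate and so changes the adenine nucleotide pool of the matrix (chr17:57043711-57059909). It had 202, 238, 215, 223 and 196 CPM in the SNpc libraries, against 252, 278, 284, 307 and 277 CPM in the VTA libraries, so that all SNpc libraries were below all VTA libraries. Its log2 fold change was -0.38 ± 0.09 (SE, adjusted p = 0.00251 by edgeR), a level of 0.768 times that in VTA. It shares 168 exonic bases with an antisense gene, Gm17168, and no source used here states whether the counting used strand. The other calcium-regulated ATP-Mg carriers had no call. Of them, Slc25a25 shares 379 exonic bases with Naif1 on the opposite strand. Slc25a25 had 43.9, 37.0, 48.9, 44.3 and 46.2 CPM in the SNpc libraries, against 40.2, 37.9, 47.8, 42.6 and 45.0 CPM in the VTA libraries, overlapping throughout (log2 fold change 0.05 ± 0.12 SE, adjusted p = 0.785 by edgeR), and Slc25a24 was lower still, at 4.78 to 9.58 CPM in SNpc and 5.41 to 8.29 CPM in VTA. Slc25a42, which carries coenzyme A and adenine nucleotides, had 19.6, 16.5, 31.8, 23.2 and 37.5 CPM in the SNpc libraries, against 34.0, 36.5, 27.5, 35.8 and 44.7 CPM in the VTA libraries, with overlap and no call (log2 fold change -0.47 ± 0.20 SE, adjusted p = 0.0743 by edgeR). It was called higher in VTA without SNpc library 6 (log2 fold change -0.65, edgeR adjusted p = 0.015). The germ cell ADP/ATP carrier Slc25a31 and the ATP-Mg carrier Slc25a41 did not pass the filter. Slc25a31 had 0 to 11 reads in the SNpc libraries and 0 to 5 in the VTA libraries, and Slc25a41 had 0 to 8 and 0 to 27.

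The promoter windows of these 4 called carriers are shown because the first 3 were higher in SNpc together and the last was higher in VTA. Each is the 250 bases before the most upstream start listed for the gene in the RefSeq promoter table of GRCm38.p6, 5′ to 3′ on the strand of the gene. The ends of the Slc25a3 and Slc25a23 windows lie inside the gene spans given above, which reach further upstream than the starts of that table. Capitals mark matches, on either strand, to 6 motifs. These were GGGCGG, known as the GC box, and the box written CCAAT. The others were CCGGAAG, a core bound by Ets factors, and GCATGCGC, a core of the sites of the factor NRF1. The last were AAGGTCA, a core of estrogen-related receptor sites, and TGACGTCA, the element of the response to cyclic AMP. The windows lie at chr8:46211063-46211312 (minus strand), chrX:36795347-36795596 (plus), chr10:91123968-91124217 (minus) and chr17:57059864-57060113 (minus).
Slc25a4: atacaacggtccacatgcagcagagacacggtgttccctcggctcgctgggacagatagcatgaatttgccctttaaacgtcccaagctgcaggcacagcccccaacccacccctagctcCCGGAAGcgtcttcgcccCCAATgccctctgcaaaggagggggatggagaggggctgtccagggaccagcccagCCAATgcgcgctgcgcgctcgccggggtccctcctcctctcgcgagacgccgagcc
Slc25a5: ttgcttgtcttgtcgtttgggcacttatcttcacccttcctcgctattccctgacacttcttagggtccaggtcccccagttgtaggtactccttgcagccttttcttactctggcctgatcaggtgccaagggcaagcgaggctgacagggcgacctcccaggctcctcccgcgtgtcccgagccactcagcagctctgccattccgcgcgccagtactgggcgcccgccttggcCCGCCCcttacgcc
Slc25a3: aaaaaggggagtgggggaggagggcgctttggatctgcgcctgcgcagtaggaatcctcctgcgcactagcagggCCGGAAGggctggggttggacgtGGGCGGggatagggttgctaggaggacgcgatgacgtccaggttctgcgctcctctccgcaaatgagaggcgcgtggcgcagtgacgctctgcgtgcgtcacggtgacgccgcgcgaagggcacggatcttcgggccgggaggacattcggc
Slc25a23: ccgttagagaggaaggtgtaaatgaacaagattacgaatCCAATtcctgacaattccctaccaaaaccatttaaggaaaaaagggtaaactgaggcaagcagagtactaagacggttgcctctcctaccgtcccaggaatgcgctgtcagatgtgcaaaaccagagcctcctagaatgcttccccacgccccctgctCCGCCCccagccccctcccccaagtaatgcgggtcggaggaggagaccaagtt

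The window of Slc25a4 held 2 CCAAT matches and 1 Ets core, that of Slc25a5 held 1 GC box, that of Slc25a3 held 1 GC box and 1 Ets core, and that of Slc25a23 held 1 GC box and 1 CCAAT match. No match overlapped another. Among all 32851 windows of the table, 32.7% held a GC box, 33.8% the CCAAT box and 6.91% the Ets core. None of the 4 windows held the NRF1, estrogen-related receptor or cAMP response letters, which 2.26%, 4.08% and 1.55% of all windows did. These are matches of letters and say nothing of binding. Of the 44 carriers, 34 had a window that was searched, and in any window of the gene 24 had a GC box, 17 CCAAT and 5 the Ets core, the last being Slc25a3, Slc25a4, Slc25a17, Slc25a20 and Slc25a38. These counts are per gene, and some genes had several windows. The shares above are per window, so the counts cannot be set against them.

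Slc25a12 and Slc25a11, the main carriers of the malate-aspartate shuttle in neurons, were higher in SNpc. Of the 8 carriers of dicarboxylates, citrate, aspartate and glutamate, 3 were higher in SNpc and 0 in VTA, and their median log2 fold change was 0.19. Over all genes tested the shares were 17.8% and 20.4% and the median -0.04, and with 8 genes the count says nothing particular to this group. Slc25a12, or aralar, the aspartate-glutamate carrier of neurons that cytosolic calcium activates (chr2:71274270-71367781), had 256, 222, 223, 217 and 254 CPM in the SNpc libraries, against 181, 155, 166, 180.4 and 188 CPM in the VTA libraries. Its groups did not overlap, and it changed by 0.43 ± 0.09 (SE, adjusted p = 0.00123 by edgeR) on the log2 scale. Slc25a11, the 2-oxoglutarate-malate carrier (chr11:70644019-70647531), had 131, 117, 148, 134 and 137 CPM in the SNpc libraries, against 83.4, 80.1, 107, 99.9 and 106 CPM in the VTA libraries, with VTA libraries 1 and 2 lowest and no overlap (log2 fold change 0.48 ± 0.11 SE, adjusted p = 0.00189 by edgeR). It shares 189 exonic bases with Rnf167 on the opposite strand. Slc25a22, which brings glutamate into mitochondria (chr7:141429749-141437874), had 102, 126, 117, 95.1 and 122 CPM in the SNpc libraries, against 77.6, 77.0, 102, 88.7 and 87.8 CPM in the VTA libraries. SNpc library 4 fell below VTA library 4, and the log2 fold change was 0.38 ± 0.11 (SE, adjusted p = 0.0112 by edgeR). Its call ended with the mean of glial and vascular markers as a covariate (log2 fold change 0.25, edgeR adjusted p = 0.171).

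Their relatives gave no call with all libraries. Slc25a13, or citrin, the aspartate-glutamate carrier best known from liver, was scarce, with 3.55, 4.37, 4.87, 8.51 and 3.88 CPM in the SNpc libraries, against 7.32, 10.7, 6.60, 7.42 and 6.64 CPM in the VTA libraries. SNpc library 4 was far above the other 4 SNpc libraries. With it the log2 fold change of -0.62 ± 0.28 (SE, adjusted p = 0.0893 by edgeR) was no call, and without it citrin was higher in VTA (log2 fold change -0.83, edgeR adjusted p = 0.0173). Slc25a18, a second glutamate carrier that in brain is found mainly in astrocytes, was at 2.18 to 5.39 CPM in SNpc and 3.83 to 4.63 CPM in VTA, with SNpc library 4 highest (log2 fold change -0.32 ± 0.34 SE, adjusted p = 0.484 by edgeR). The citrate carrier Slc25a1 had 69.9, 67.6, 62.04, 58.5 and 65.0 CPM in the SNpc libraries, against 48.1, 51.9, 58.1, 70.1 and 61.7 CPM in the VTA libraries, with overlap and a log2 fold change of 0.16 ± 0.12 (SE, adjusted p = 0.309 by edgeR). The dicarboxylate carrier Slc25a10 was at 9.21 to 16.6 CPM in SNpc and 7.07 to 13.2 CPM in VTA. The oxodicarboxylate carrier Slc25a21 was at 0.188 to 2.04 CPM in SNpc and 0.901 to 2.91 CPM in VTA, and neither passed the test.

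Ratios of 2 carriers within a library do not depend on its scale. They were chosen after the values had been seen and are given with no test, as reads per base of transcript. Aralar exceeded citrin by 12.6 to 35.5 times in SNpc and by 7.12 to 13.9 times in VTA, with only SNpc library 4 inside the VTA range. The phosphate carrier exceeded Slc25a23 by 2.92 to 3.70 times in SNpc and by 1.53 to 1.98 times in VTA, with no overlap. Aralar relative to Slc25a23, both of which have calcium-binding domains, was 0.492 to 0.686 in SNpc and 0.2945 to 0.381 in VTA, again with no overlap. Slc25a3 and Slc25a12 were above VTA in all SNpc libraries and Slc25a23 below, so the separation of these ratios restates those levels and adds no support. The ratio of ANT1 to ANT2, both higher in SNpc, was 2.92 to 3.79 in SNpc and 3.505 to 4.39 in VTA, and these ranges overlapped.

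**Figure D2:**
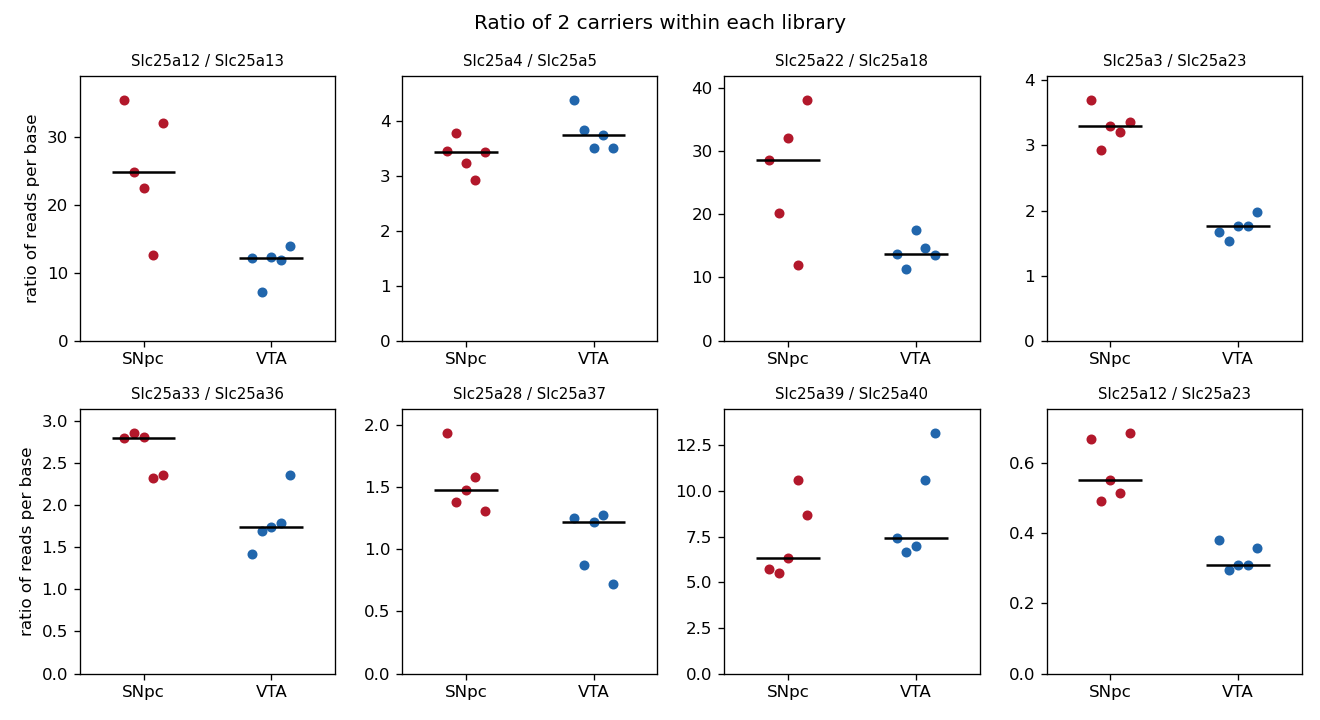
Ratio of reads per base of transcript of 2 carriers (y axis, linear from 0) within each of the 5 SNpc (red, left) and 5 VTA (blue, right) libraries, with the median as a black line. The groups are separate for Slc25a3 over Slc25a23, Slc25a12 over Slc25a23 and Slc25a28 over Slc25a37, and overlap in the other 5 panels.

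Of 11 carriers of cofactors, nucleotides, iron and glutathione, 2 were higher in SNpc and 2 in VTA. That was 18.2% each way, close to the 17.8% and 20.4% of all genes tested. Slc25a33, which carries pyrimidine nucleotides for the making of mitochondrial DNA and RNA (chr4:149744036-149774267), had 53.9, 54.8, 52.4, 47.5 and 43.1 CPM in the SNpc libraries, against 25.2, 27.4, 38.2, 39.9 and 38.6 CPM in the VTA libraries, with no overlap and a log2 fold change of 0.57 ± 0.14 (SE, adjusted p = 0.00496 by edgeR). It shares 281 exonic bases with the antisense gene Gm13068. Its call ended with the marker covariate (log2 fold change 0.44, edgeR adjusted p = 0.0658). Its relative Slc25a36, a second pyrimidine nucleotide carrier, had 53.3, 53.2, 51.7, 56.7 and 50.7 CPM in the SNpc libraries, against 49.3, 44.8, 60.7, 61.9 and 45.3 CPM in the VTA libraries and a log2 fold change of 0.02 ± 0.12 (SE, adjusted p = 0.909 by edgeR). Slc25a33 exceeded Slc25a36 by 2.32 to 2.85 times per base in SNpc and by 1.42 to 2.36 times in VTA, where VTA library 6 overlapped SNpc. A pseudogene, Gm13217, matches 17.7% of the Slc25a36 transcript at 95% identity or more, so its count and this ratio are uncertain. Slc25a17, a carrier of the peroxisome membrane that takes coenzyme A and other nucleotide cofactors (chr15:81318921-81360765), had 27.9, 22.1, 22.3, 30.0 and 24.9 CPM in the SNpc libraries, against 21.8, 19.4, 18.9, 19.8 and 17.4 CPM in the VTA libraries. These groups were narrowly separate, with a log2 fold change of 0.39 ± 0.14 (SE, adjusted p = 0.0373 by edgeR). The call of Slc25a17 ended without SNpc library 1 or without VTA library 2, 4, 5 or 6, where the log2 fold change was 0.35 to 0.39 and adjusted p was at most 0.0832. It also ended with library totals as the scale (log2 fold change 0.34, edgeR adjusted p = 0.0836).

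The carriers higher in VTA in this group were Slc25a16 and Slc25a37. Slc25a16, linked to coenzyme A transport into mitochondria (chr10:62920632-62946494), had 62.4, 89.1, 85.0, 76.7 and 94.8 CPM in the SNpc libraries, against 81.1, 127, 115, 119 and 119.99 CPM in the VTA libraries. VTA library 1 lay far below the other 4 VTA libraries and within the SNpc range, and the log2 fold change was -0.46 ± 0.13 (SE, adjusted p = 0.0112 by edgeR). Slc25a37, mitoferrin-1, which imports iron for heme and iron-sulfur clusters (chr14:69241848-69285544), had 22.2, 20.4, 32.9, 33.3 and 32.3 CPM in the SNpc libraries, against 35.4, 46.8, 29.1, 33.7 and 57.5 CPM in the VTA libraries. VTA libraries 2 and 6 were high and the other 3 were near the SNpc libraries (log2 fold change -0.52 ± 0.19 SE, adjusted p = 0.0412 by edgeR). The call ended without SNpc library 1 or 2 or VTA library 2 or 6, with log2 fold changes from -0.47 to -0.36 and adjusted p from 0.0967 to 0.142. It ended as well with DESeq2 size factors as the scale (log2 fold change -0.49, edgeR adjusted p = 0.0501) and with the marker covariate (log2 fold change -0.44, edgeR adjusted p = 0.208). Slc25a37 shares 381 exonic bases with Gm31748 and 92 with Gm27223, both on the opposite strand. Mitoferrin-2, Slc25a28, had no call, at 10.3 to 19.4 CPM in SNpc and 13.05 to 16.3 CPM in VTA. The ratio of mitoferrin-2 to mitoferrin-1 was 1.31 to 1.93 per base in SNpc and 0.72 to 1.28 in VTA.

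Carriers of this group without a call included some close to the threshold. The glutathione carrier Slc25a39 had 63.5, 74.6, 68.1, 67.6 and 55.2 CPM in the SNpc libraries, against 49.4, 50.5, 52.6, 65.1 and 57.5 CPM in the VTA libraries, with a log2 fold change of 0.26 ± 0.11 (SE, adjusted p = 0.0858 by edgeR), and it was called without SNpc library 6 or VTA library 5. Its relative Slc25a40 had 18.4, 22.4, 17.7, 10.52 and 10.53 CPM in the SNpc libraries, against 10.99, 12.5, 12.5, 10.2 and 7.22 CPM in the VTA libraries, where SNpc libraries 1, 2 and 3 were above all VTA libraries and SNpc libraries 4 and 6 within them (log2 fold change 0.57 ± 0.23 SE, adjusted p = 0.0622 by edgeR). It was called higher in SNpc without SNpc library 4 or 6. A pseudogene, Gm5066, matches 25.9% of the Slc25a40 transcript at 95% identity or more, so its count is uncertain. Slc25a32, a carrier of folate and flavin cofactors, had 5.77, 5.48, 5.63, 5.98 and 9.51 CPM in the SNpc libraries, against 8.74, 11.3, 7.21, 9.01 and 9.17 CPM in the VTA libraries. Only SNpc library 6 reached the VTA range, and without it Slc25a32 was higher in VTA (log2 fold change -0.67, edgeR adjusted p = 0.0277). The S-adenosylmethionine carrier Slc25a26 had 7.49, 7.30, 7.37, 10.1 and 7.43 CPM in the SNpc libraries, against 7.05, 8.98, 7.43, 7.20 and 10.1 CPM in the VTA libraries and showed no difference past the test (log2 fold change -0.04 ± 0.21 SE, adjusted p = 0.899 by edgeR).

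Of 8 tested carriers of amino acids and carnitine, 1 was called, where 38.2% of all genes tested were called in either direction. Slc25a38, which brings in glycine for the first step of heme synthesis (chr9:120110377-120126093), had 37.8, 31.7, 38.0, 32.3 and 31.4 CPM in the SNpc libraries, against 25.2, 18.0, 22.4, 27.6 and 28.3 CPM in the VTA libraries. All SNpc libraries were above all VTA libraries (log2 fold change 0.49 ± 0.14 SE, adjusted p = 0.012 by edgeR), and the call ended with the marker covariate (edgeR adjusted p = 0.0933). Slc25a44, a carrier of branched-chain amino acids, was the most abundant of the group in both regions and had 101, 118, 77.8, 87.5 and 96.0 CPM in the SNpc libraries, against 96.0, 90.9, 92.0, 126 and 114 CPM in the VTA libraries, fully overlapping (log2 fold change -0.11 ± 0.12 SE, adjusted p = 0.512 by edgeR). Slc25a20, which carries acylcarnitines inward for fatty acid oxidation, had 5.69, 8.65, 8.55, 7.37 and 7.88 CPM in the SNpc libraries, against 10.96, 10.2, 6.28, 11.2 and 14.6 CPM in the VTA libraries. Only VTA library 4 lay within the SNpc range, and without it Slc25a20 was higher in VTA (log2 fold change -0.62, edgeR adjusted p = 0.0344). The ornithine carrier Slc25a15 was at 6.99 to 16.7 CPM in SNpc and 10.2 to 12.8 CPM in VTA, and the basic amino acid carrier Slc25a29 at 4.14 to 10.05 CPM in SNpc and 5.03 to 6.97 CPM in VTA. Slc25a45, Slc25a47 and Slc25a2, whose highest value in any library was 2.69 CPM, were scarce, and in Slc25a2, an ornithine carrier, SNpc library 3 alone reached 2.05 CPM against 0 to 0.196 CPM in the other SNpc libraries. Slc25a48 did not pass the filter, with 0 reads in all SNpc libraries and in VTA libraries 1, 2 and 6, 1 in VTA library 5 and 85 in VTA library 4.

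None of the 3 relatives of the uncoupling proteins was called. Of all genes tested 38.2% were called in either direction, and 3 genes are too few to set against that share. Slc25a27, or UCP4, a form of brain, had 64.7, 69.9, 58.1, 55.7 and 58.5 CPM in the SNpc libraries, against 53.6, 44.2, 66.6, 48.1 and 48.2 CPM in the VTA libraries, with VTA library 4 above most SNpc libraries (log2 fold change 0.24 ± 0.12 SE, adjusted p = 0.146 by edgeR). It was higher in SNpc without that library (log2 fold change 0.34, edgeR adjusted p = 0.0316). Slc25a14, or UCP5, had 30.8, 35.3, 27.4, 39.0 and 26.1 CPM in the SNpc libraries, against 31.7, 16.7, 34.2, 25.8 and 26.4 CPM in the VTA libraries, with wide overlap (log2 fold change 0.24 ± 0.18 SE, adjusted p = 0.322 by edgeR). Slc25a30, a close relative of Slc25a14, was scarce, with 0.907, 1.63, 3.58, 2.80 and 1.505 CPM in the SNpc libraries, against 6.73, 5.03, 3.68, 2.86 and 2.24 CPM in the VTA libraries. VTA libraries 1 and 2 were highest and VTA libraries 5 and 6 within the SNpc range (log2 fold change -0.98 ± 0.44 SE, adjusted p = 0.0897 by edgeR), and it was called higher in VTA without SNpc library 3 (log2 fold change -1.26, edgeR adjusted p = 0.0465). Of the remaining carriers Slc25a46, an outer membrane protein tied to mitochondrial fission and lipid supply, was by far the most abundant. It shares 383 exonic bases with B930094E09Rik on the opposite strand. It had 146, 119, 129, 84.2 and 160.2 CPM in the SNpc libraries, against 118, 111, 111, 115 and 50.9 CPM in the VTA libraries. SNpc library 4 and VTA library 6 were each the lowest of their region, and the log2 fold change of 0.34 ± 0.22 (SE, adjusted p = 0.254 by edgeR) was no call, but a call without SNpc library 4 (log2 fold change 0.51, edgeR adjusted p = 0.0486). Slc25a35, which shares 1151 exonic bases with Rangrf on the opposite strand, was at 7.32 to 13.9 CPM in SNpc and 10.3 to 17.1 CPM in VTA. Slc25a43 reached 2.44 CPM in SNpc library 4 and stayed under 1 CPM in the other SNpc libraries, and Slc25a34 did not exceed 0.797 CPM in any library.

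**Figure D3:**
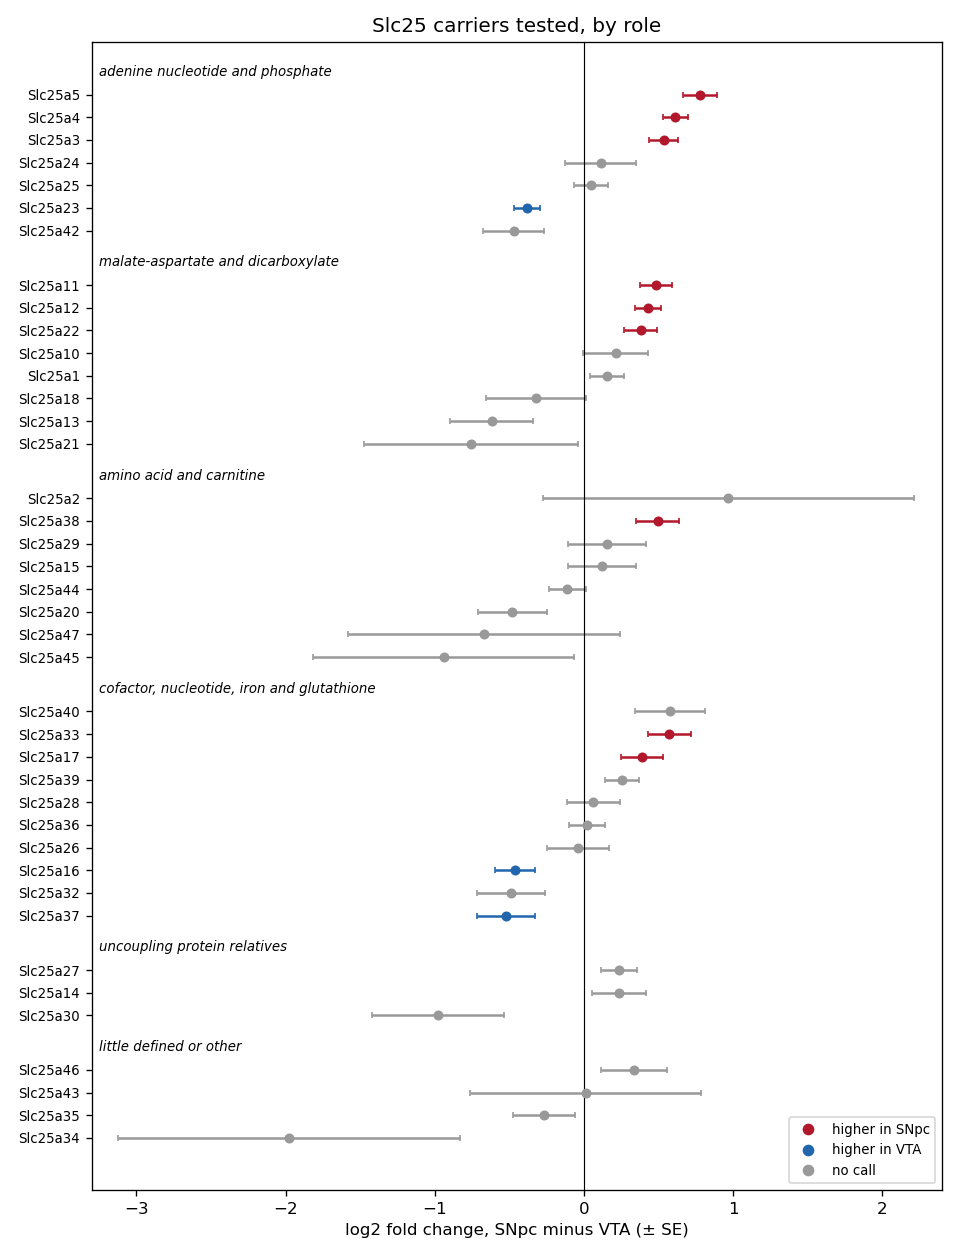
Log2 fold change, SNpc minus VTA, with its standard error (x axis), for 40 tested carriers grouped by role. Red points are the 9 carriers higher in SNpc, blue points the 3 higher in VTA and grey points 28 without a call, whose errors are widest for scarce carriers such as Slc25a2 and Slc25a34.

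Levels of the carriers spanned several orders of magnitude. Among the 44 carriers, on the scale of CPM per kilobase of transcript, Slc25a4 led with 516 ± 34.1 in SNpc and 337 ± 31.7 in VTA (mean ± SD of 5 libraries). Slc25a3 followed with 209.8 ± 9.91 in SNpc and 145 ± 18.2 in VTA, and Slc25a5 with 154 ± 12.4 in SNpc and 89.8 ± 14.7 in VTA. Below these the order differed between regions. In SNpc the fourth place was held by Slc25a11 (77.9 ± 6.45) and the fifth by Slc25a23 (63.9 ± 5.03), whereas in VTA Slc25a23 (83.2 ± 5.89) came before Slc25a11 (55.7 ± 7.47). VTA levels of Slc25a5 and Slc25a23 lay within 1 SD of each other. From the sixth place in SNpc, Slc25a22 (40.1 ± 4.73), Slc25a39 (39.1 ± 4.23), Slc25a1 (38.8 ± 2.70) and Slc25a12 (36.9 ± 2.97) did not differ beyond their spread. In VTA, Slc25a16 (35.7 ± 5.72), Slc25a1 (34.8 ± 5.16), Slc25a39 (32.7 ± 3.82), Slc25a22 (30.8 ± 3.57) and Slc25a44 (29.6 ± 4.43) followed on each other in the same way. Slc25a16 was 13th in SNpc and 6th in VTA. Family members listed under other names were not ranked. On this scale Mtch1 averaged 213 in SNpc and 158 in VTA, and Slc25a53 averaged 49.5 and 47.0. Summed over the 44 carriers, levels were 3068 to 3257 CPM in SNpc and 2320 to 2746 CPM in VTA. Slc25a4 alone made up 29.9% to 32.8% of that sum in SNpc and 24.95% to 26.65% in VTA. The spread between libraries was smallest for Slc25a36 and Slc25a3 in SNpc, with coefficients of variation of 4.31% and 4.72%, and among the 12 called carriers it was widest for Slc25a37, at 22.6% in SNpc and 28.4% in VTA.

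**Figure D4:**
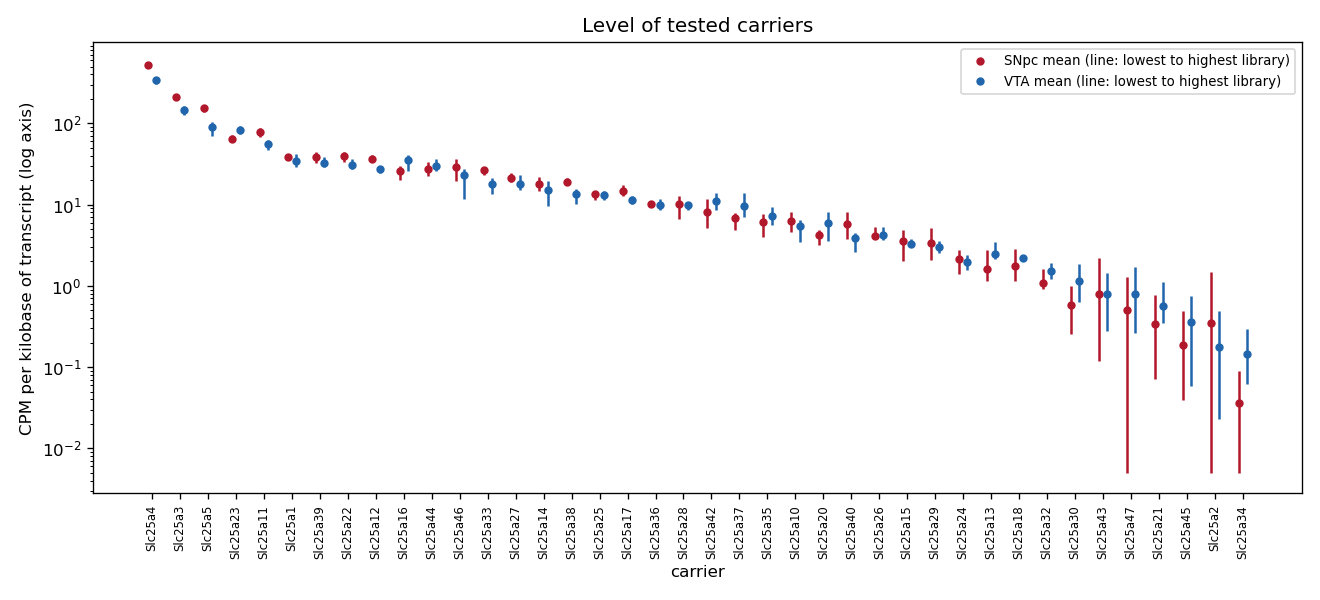
Mean level of 40 tested carriers in CPM per kilobase of transcript (log y axis) in SNpc (red, left of each pair) and VTA (blue, right), with lines from the lowest to the highest library. Carriers are ordered by the mean of both regions, from Slc25a4 at 516 and 337 to Slc25a34, and the lines of Slc25a47, Slc25a2 and Slc25a34 in SNpc are cut off at a fixed low value because a library had no read.

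Transcript length moved with the region across the whole table, and carriers were part of it. Over 14797 tested genes with a length, the log2 fold change and the length of the transcript had a Spearman's rho of -0.38. With genes cut by length into 5 bins of equal size, the median log2 fold change was 0.33 in the bin of shortest and -0.48 in that of longest transcripts. Over the 41 carriers rho was -0.33, as a description across genes that share their libraries. The carriers higher in SNpc had a median transcript length of 1791 bases, those higher in VTA 3362 bases and all 41 carriers 2480 bases. After a smooth trend of length and GC content had been removed from each library with its scale kept, 7 of the 9 carriers were still higher in SNpc and 2 of the 3 were still higher in VTA. Slc25a5 changed by 0.42 on the log2 scale then, Slc25a4 by 0.43, Slc25a3 by 0.25 and Slc25a11 by 0.27. The long transcript of Slc25a12, 6351 bases, went the other way, to 0.73 (edgeR adjusted p = 1.42e-05). Slc25a17 (0.05, adjusted p = 0.826), Slc25a38 (0.30, adjusted p = 0.0926) and Slc25a37 (-0.38, adjusted p = 0.125) lost their calls, and Slc25a20 gained one in VTA (-0.70, adjusted p = 0.0298). With the marker covariate 6 of the 9 calls in SNpc and 2 of the 3 in VTA held.

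**Figure D5:**
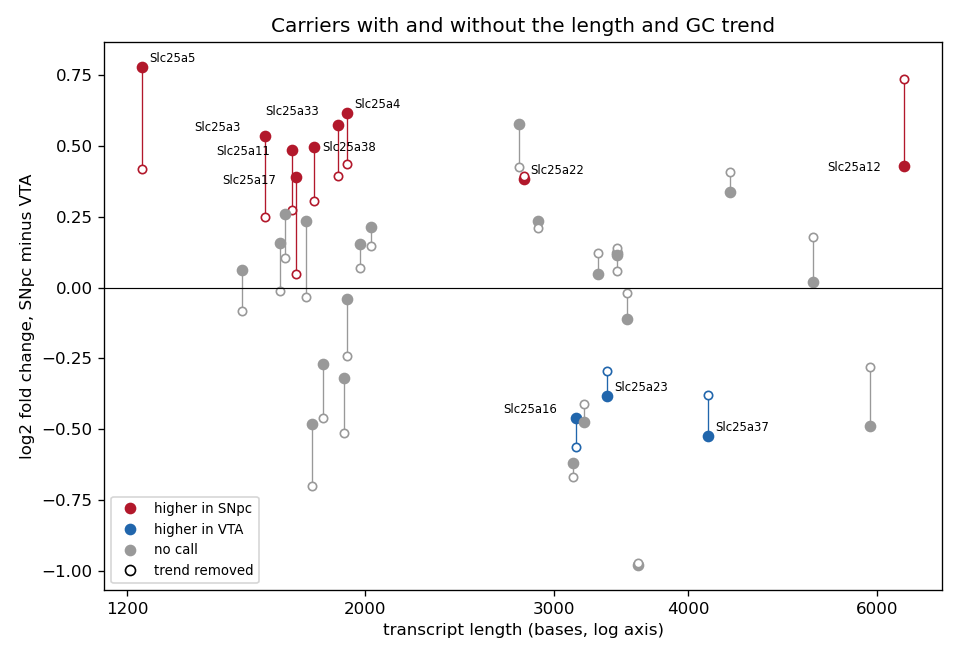
Log2 fold change, SNpc minus VTA (y axis), against transcript length in bases (log x axis) for 34 tested carriers with a mean above 3 CPM in VTA. Filled points are the values without and open points with the length and GC trend removed, joined by lines; short carriers higher in SNpc (red) moved towards 0, Slc25a12 at 6351 bases moved away from it, and the 3 carriers higher in VTA (blue) stayed below it.

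Genes that work beside the carriers were taken as 4 further lists. Of 20 other transporters of the mitochondrial membranes, 11 were higher in SNpc and 0 in VTA (17.8% and 20.4% of all genes), their median log2 fold change being 0.40. Mpc1, a subunit of the pyruvate carrier, averaged 117 ± 9.76 CPM in SNpc and 67.4 ± 7.40 CPM in VTA (mean ± SD of 5 libraries per region, log2 fold change 0.79 ± 0.10 SE, adjusted p = 1.8e-05 by edgeR). Its partner Mpc2 changed by 0.73. Micu3, a regulator of the calcium uniporter found in neurons, averaged 388 ± 49.8 CPM in SNpc and 235 ± 26.7 CPM in VTA (mean ± SD of 5 libraries per region, log2 fold change 0.72 ± 0.11 SE, adjusted p = 5.83e-05 by edgeR), and the sideroflexin Sfxn3 changed by 0.66. Vdac1, the channel of the outer membrane and the most abundant of this list, averaged 590.4 ± 23.3 CPM in SNpc and 432 ± 14.4 CPM in VTA (mean ± SD of 5 libraries per region, log2 fold change 0.45 ± 0.07 SE, adjusted p = 0.000158 by edgeR). The pore of the calcium uniporter, Mcu, had a log2 fold change of 0.03 ± 0.19 (SE, adjusted p = 0.928 by edgeR).

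Enzymes of the malate-aspartate shuttle and of glutamate and citrate metabolism gave 7 of 11 higher in SNpc, 0 in VTA and a median of 0.38. The cytosolic malate dehydrogenase Mdh1 was the most abundant, at 988 ± 75.7 CPM in SNpc and 594 ± 56.8 CPM in VTA (mean ± SD of 5 libraries per region, log2 fold change 0.73 ± 0.09 SE, adjusted p = 8.61e-06 by edgeR). Got1, the cytosolic aspartate aminotransferase, averaged 374 ± 15.4 CPM in SNpc and 254 ± 14.5 CPM in VTA (mean ± SD of 5 libraries per region, log2 fold change 0.56 ± 0.08 SE, adjusted p = 3.97e-05 by edgeR), and the mitochondrial Mdh2 changed by 0.63. Of 11 genes of the machinery that imports carriers into mitochondria, 10 were higher in SNpc, 0 were higher in VTA and the median was 0.52. The shares of all genes tested were again 17.8% and 20.4%. All SNpc libraries lay above all VTA libraries for 5 of them, where 12% of all genes tested did so. Tomm70a, the outer membrane receptor for carrier precursors, averaged 178 ± 25.9 CPM in SNpc and 121 ± 16.8 CPM in VTA (mean ± SD of 5 libraries per region, log2 fold change 0.56 ± 0.12 SE, adjusted p = 0.00158 by edgeR). Timm22, the inner membrane channel that inserts carriers, averaged 39.6 ± 4.70 CPM in SNpc and 27.7 ± 2.79 CPM in VTA (mean ± SD of 5 libraries per region, log2 fold change 0.52 ± 0.13 SE, adjusted p = 0.00408 by edgeR). Timm13 and Tomm20 changed by 0.66 and 0.35, and Timm8b was the most abundant of the list per kilobase. The carnitine shuttle and fatty acid entry had 1 of 7 higher in SNpc and 1 in VTA, 14.3% in each direction, with a median log2 fold change of -0.12. Over these lists and the family members under other names, 31 genes were higher in SNpc, and 27 with the length and GC trend removed. Over all genes the counts were 2793 and 2312.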

How the data were processed

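The data are read counts of 10 distinct libraries made from TRAP samples of dopaminergic neurons of SNpc and VTA. Whole-number counts per gene for 12 columns were deposited by the authors as 1 table. Per the labels' protocols, cDNA was amplified with a NuGEN Ovation kit and read as single ends on an Illumina HiSeq. Per the submitters' processing notes, reads were aligned with TopHat2 2.0.8 to mm10. For the counting program, its annotation and its use of strand the choice is not given in the sources used here.

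Columns with identical counts were counted once. Counts were filtered with filterByExpr, scaled by TMM and tested with edgeR 4.0.16 (quasi-likelihood, robust) in R 4.3.3. Benjamini-Hochberg adjustment was over 15685 genes with a threshold of 0.05, and the steps were tested on simulated data. A prior count of 2 was set only for CPM on the log scale. Those values entered the length and GC trend, the marker covariate and the correlations of same-numbered libraries. Total counts of 62356964 to 81393907 per library limit the precision of scarce genes, and the biological coefficient of variation was 39.6%. Library measures were compared by two-sided exact permutation tests. Transcript lengths came from GENCODE M21 and promoters and gene positions from RefSeq, which matched 23008 of 23079 identifiers. Near copies were sought with BLAST 2.17.0.

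Values in every library are given for the called carriers, for uncalled ones among the most abundant, for those whose call changes when 1 library is left out and for most of those with 1 library apart; other carriers are given by range. From other lists, the called genes of smallest p (at most 4) and the gene of highest level are named, with a few more chosen after their values were seen. The carriers and all lists were chosen with earlier results of these data known. Alternatives were other scalings (DESeq2 1.42.0 size factors, library totals), no filter, the DESeq2 test, non-robust dispersion, all 12 columns, the replicate number as a block, each library left out, a length and GC trend removed (4 degrees of freedom) and the mean of glial and vascular markers as a covariate. Individual results of some genes that enter the fits and counts are not reported here.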

Additional observations from a re-analysis of the deposited data

Results flagged for a closer look

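In 9 of 82 groups of 5 libraries, 1 per tested carrier and region, a single library lay so far from the other 4 that its gap exceeded 0.71 of the group's range, the 95% critical value of Dixon's test; chance gives about 1 in 20 such groups. Citrin, Slc25a13, was flagged in both regions: SNpc library 4 was at 8.51 CPM, with the other SNpc libraries at 3.55 to 4.87 CPM (ratio 0.734), and VTA library 2 was at 10.7 CPM, with the others at 6.60 to 7.42 CPM (ratio 0.799). SNpc library 4 also stood apart for Slc25a26, at 10.1 CPM against 7.30 to 7.49 CPM (ratio 0.931), and for Slc25a43, at 2.44 CPM against 0.130 to 0.647 CPM (ratio 0.776). This is the SNpc library with the most oligodendrocyte markers, at 1478 CPM; their part in these values was not tested.

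In SNpc, Slc25a32 was at 9.51 CPM in library 6 and at 5.48 to 5.98 CPM in the others (ratio 0.875), and Slc25a2 was at 2.05 CPM in library 3 and at most 0.196 CPM in the others (ratio 0.905). In VTA, the mitochondrial outer membrane protein Slc25a46 was at 50.9 CPM in library 6 and at 111 to 118 CPM in the others (ratio 0.886). Slc25a16 was at 81.1 CPM in VTA library 1 and at 115 to 127 CPM in the others (ratio 0.735). Slc25a21 was at 2.91 CPM in VTA library 2 and at 0.901 to 1.37 CPM in the others (ratio 0.765).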

How the results depend on the processing

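Of the 12 called carriers, 6 were called under all 20 alternatives (Slc25a3, Slc25a4, Slc25a5, Slc25a11, Slc25a12 and Slc25a16), 10 in every fit without 1 library, and none changed direction. Leaving out 1 library gave 8 to 11 carriers higher in SNpc and 2 to 5 higher in VTA, the 5 without SNpc library 6. All 12 columns, with identical ones counted as separate, gave 7 higher in VTA; the spread is then too small by construction. With the marker covariate, 1507 of all genes and 19 partner genes were higher in SNpc, against 2793 and 31 without it, and 2247 of all genes and 2 partner genes were higher in VTA, against 3203 and 3. Library totals and the covariate changed some uncalled directions, given below; the cause was not tested.

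Deviations of same-numbered libraries from the mean of their region correlated at 0.0322, -0.0723, -0.0147 and 0.0443. Libraries of different numbers were not compared, and the identical columns leave the true number of some libraries unknown. Whether replicate numbers pair the libraries is therefore not settled. The replicate block on the 4 numbers shared by the regions gave 7 carriers higher in SNpc, 2 in VTA and, of all genes, 1789 in SNpc and 2543 in VTA. Slc25a17, Slc25a22, Slc25a23 and Slc25a37 had no call then, with log2 fold changes of 0.43, 0.37, -0.35 and -0.63, against 0.39, 0.38, -0.38 and -0.52 without the block (edgeR adjusted p = 0.0965, 0.088, 0.0506 and 0.0517 with it), and Slc25a42 gained one. Fewer libraries entered that fit.

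Directions that turned belonged to uncalled carriers. Under the block, log2 fold changes were -0.0325 for Slc25a15, -1.79 for Slc25a2, -0.11 for Slc25a29, -0.23 for Slc25a43 and 0.0322 for Slc25a44. With the covariate they were -0.12 for Slc25a10, -0.24 for Slc25a24, 0.0758 for Slc25a26, -0.0796 for Slc25a29 and 0.34 for Slc25a47. With library totals they were -0.0039 for Slc25a25 and -0.0296 for Slc25a36. With the length and GC trend removed, scale kept or refitted, they were -0.011 and -0.0171 for Slc25a1, -0.0325 and -0.0399 for Slc25a14, -0.0833 and -0.0919 for Slc25a28 and -0.28 and -0.28 for Slc25a43. Without 1 library each they ranged from -0.014 to 0.27 for Slc25a15, -1.57 to 1.78 for Slc25a2, -0.0014 to 0.30 for Slc25a24, -0.087 to 0.051 for Slc25a26, -0.049 to 0.34 for Slc25a29, -0.031 to 0.088 for Slc25a36 and -0.77 to 0.35 for Slc25a43.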

Other observations

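Family members listed under other names did not share a direction. The uncoupling protein Ucp2 was higher in VTA, at 10.9 ± 2.84 CPM in SNpc and 21.5 ± 2.59 CPM in VTA (mean ± SD of 5 libraries per region, log2 fold change -0.98 ± 0.19 SE, adjusted p = 0.000692 by edgeR). Ucp3 was scarce, at 0.0159 to 0.487 CPM in SNpc and 0.266 to 1.75 CPM in VTA (log2 fold change -2.65 ± 1.02 SE, adjusted p = 0.0495 by edgeR), and Ucp1, the uncoupling protein of brown fat, had 0 counts in all libraries. The outer membrane relatives Mtch1 and Mtch2 were higher in SNpc, Mtch1 at 416 ± 30.5 CPM in SNpc and 308 ± 49.7 CPM in VTA (mean ± SD of 5 libraries per region, log2 fold change 0.43 ± 0.11 SE, adjusted p = 0.00453 by edgeR) and Mtch2 at 131 ± 9.58 CPM in SNpc and 96.8 ± 11.7 CPM in VTA (mean ± SD of 5 libraries per region, log2 fold change 0.44 ± 0.10 SE, adjusted p = 0.00262 by edgeR). Slc25a51, a carrier of NAD+ that the table lists as Mcart1, averaged 141 ± 8.88 CPM in SNpc and 165 ± 15.7 CPM in VTA (mean ± SD of 5 libraries per region) and had no call (log2 fold change -0.23 ± 0.09 SE, adjusted p = 0.0603 by edgeR). Slc25a53, listed as Mcart6, had none either (log2 fold change 0.08 ± 0.09 SE, adjusted p = 0.524 by edgeR).

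Of 7 genes of the carnitine shuttle and fatty acid oxidation, 1 was higher in SNpc and 1 in VTA, 14.3% each way, beside 17.8% and 20.4% of all genes tested. Crat, which makes acetylcarnitine in mitochondria, was higher in VTA, at 47.4 ± 9.93 CPM in SNpc and 86.8 ± 6.12 CPM in VTA (mean ± SD of 5 libraries per region, log2 fold change -0.87 ± 0.13 SE, adjusted p = 9.08e-05 by edgeR). Cpt1c, the neuronal carnitine palmitoyltransferase relative, was higher in SNpc, at 36.9 ± 4.50 CPM in SNpc and 24.8 ± 6.45 CPM in VTA (mean ± SD of 5 libraries per region, log2 fold change 0.58 ± 0.17 SE, adjusted p = 0.0143 by edgeR). Slc25a20, the acylcarnitine carrier, had a log2 fold change of -0.48 ± 0.23 (SE, adjusted p = 0.112 by edgeR).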
